A study of Mus musculus with 4 samples.

Results

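White adipocytes store fatty acids by esterifying them to a glycerol backbone, and 8 genes of this route were followed in gonadal white adipose tissue (gWAT) of mice with and without adipocyte Dnmt1. They were chosen by symbol. For the acylation and dephosphorylation steps there were 5 (Gpam, Agpat2, Lpin1, Dgat1 and Dgat2). For the supply of glycerol and glycerol 3-phosphate there were 3 (Pck1, Gpd1 and Aqp7). The deposited table lists 17335 genes and holds all 8. Equal amounts of gWAT RNA from 4 female mice per group, after 18 weeks of high-fat diet (HFD, 60% of calories from fat), were pooled, and each pool gave 1 RNA-seq library. The control pool came from floxed littermates (Dnmt1 fl/fl, called fl/fl), in which loxP sites flank exons of Dnmt1 and the gene is intact. The other pool came from AD1KO mice, in which the same floxed allele meets a Cre recombinase driven by the adiponectin promoter, active mainly in mature adipocytes, so that the other cells of the fat pad keep Dnmt1. The age of the mice is not given in the sources used here.

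In the fat cell, glycerol 3-phosphate is acylated first by glycerol-3-phosphate acyltransferases and then by lysophosphatidate acyltransferases. Lipins remove the phosphate to give diacylglycerol, and diacylglycerol acyltransferases add the last fatty acid to complete triglyceride. Glycerol 3-phosphate comes from glycolysis or, when glucose is scarce, from pyruvate through phosphoenolpyruvate carboxykinase (glyceroneogenesis), and in both cases glycerol-3-phosphate dehydrogenase makes the last step. White adipocytes hold little glycerol kinase, so glycerol freed by lipolysis largely leaves the cell through the channel aquaporin 7.

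Each group is 1 pooled library, so there is no measure of the spread between animals, and no p-value is given. Expression is in FPKM (fragments per kilobase of gene length scaled to library size). Differences are given as log2 ratios of AD1KO to fl/fl, with 0.01 added to each FPKM, and a gene counts as higher or lower past 0.5 in either direction, the value the methods of the study give. Reads per gene were estimated from FPKM and gene length, and the 95% intervals below are exact counting intervals on these reads, which cover counting error only. Dnmt1 itself was at 6.99 FPKM in the control library and 3.33 in that of AD1KO, with a log2 ratio of -1.07 (interval -1.27 to -0.87), which goes with the labels. FPKM covers the whole gene, not the floxed exons alone. In the same libraries the median log2 ratio of 10 macrophage markers was -1.18. The part of cell composition in the Dnmt1 difference was not tested. Estimated depth was 17570000 reads in fl/fl and 17340000 in AD1KO. The top 20 genes by estimated reads held 18.7% (fl/fl) and 21.2% (AD1KO) of all estimated reads. Of 15839 genes that reached 0.1 FPKM in 1 library or both, 14.3% were higher and 19.1% lower in AD1KO.

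All 8 genes passed that filter and all 8 had a higher level in the AD1KO library. For 5 of them, Pck1, Dgat2, Gpd1, Lpin1 and Agpat2, the log2 ratio was past 0.5, against the 14.3% of all tested genes. For Aqp7, Dgat1 and Gpam it was 0.47, 0.46 and 0.45, short of that threshold. None was lower. With the libraries scaled by the trimmed mean of M-values 7 of the 8 were past 0.5, while 15.6% of all tested genes were higher and 17.8% lower. Scaling by the median of ratios also gave 7 of 8, against 15.8% higher and 17.7% lower. The upper quartile gave 8 of 8, against 17.7% higher and 16.3% lower, so that the balance of all genes turned round. The median log2 ratio of the 8 was 0.65, and that of all tested genes was -0.04. The whole counting interval lay above 0 for 8 of 8, against 21.5% of all tested genes, and above 0.5 for 5 of 8, against 4.15%. For 0 of 8 did it lie below 0 (29% of all tested genes) or below -0.5 (8.28%), and 0 of 8 ratios reached 1 (5.75%) or -1 (8.95%). The 8 are abundant transcripts with narrow intervals, and among the 6161 genes that reached 10 FPKM in 1 library or both the share with the interval above 0 was 31.1% and the share past 0.5 was 8.54%. That minimum was chosen after the data were seen.

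Together the 8 genes held 1757 FPKM in fl/fl against 2906 in AD1KO, and the log2 ratio of these sums was 0.73. Their estimated reads came to 69422 in fl/fl and 113662 in AD1KO, 0.391% and 0.651% of the reads of these libraries. The levels of single genes spanned 45.9-fold in fl/fl and 57.5-fold in AD1KO. From the highest FPKM downwards the order in fl/fl was Dgat2, Gpd1, Agpat2, Pck1, Dgat1, Aqp7, Lpin1 and Gpam. In AD1KO the order was the same except at Aqp7 and Lpin1, whose levels of 45.2 and 45.4 FPKM there lie within each other's counting intervals. In fl/fl their intervals did not overlap, with Aqp7 from 31.0 to 34.5 FPKM and Lpin1 from 27.4 to 29.6. No other neighbours in either order had overlapping counting intervals.

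**Figure D1:**
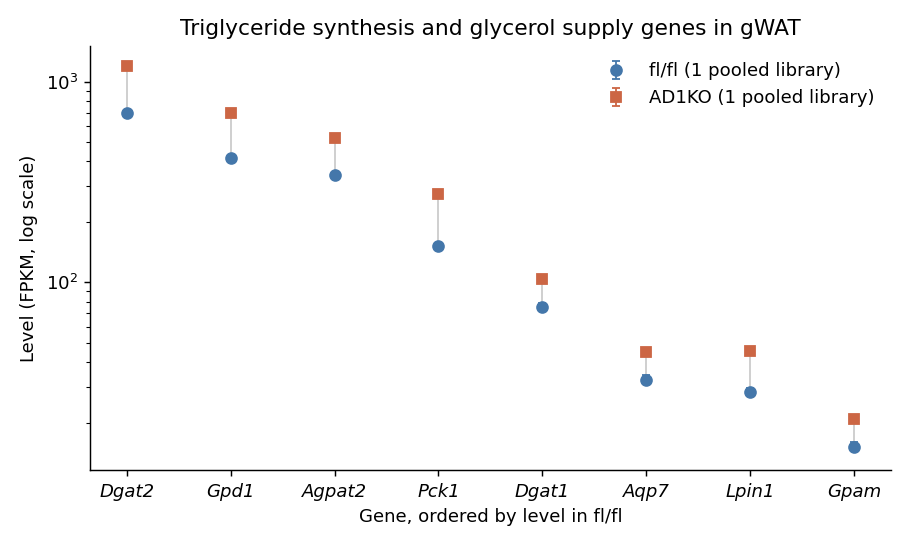
Level of each gene in FPKM on a log axis in the fl/fl library (circles) and the AD1KO library (squares), with 95% exact Poisson intervals that mostly lie within the symbols. Each of the 8 genes sits higher in AD1KO, from Gpam at 15.2 and 20.8 FPKM to Dgat2 at 696 and 1195 FPKM.

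Because the mice differ in a DNA methyltransferase, the CpG content of the gene starts is of interest. RefSeq windows of GRCm38 were found for 5 of the 8 genes, Agpat2, Aqp7, Gpam, Lpin1 and Pck1, with 2 alternative starts for Aqp7 and for Gpam. The 250 bases before the start are printed for 3 genes that were higher in AD1KO. They span a CpG-rich start (Agpat2), an intermediate one (Pck1) and a CpG-poor one (Lpin1). Capitals mark matches on either strand to 6 motifs. The box close to many gene starts was searched as TATAAA, and the site of nuclear factor Y as CCAAT. The GC box bound by Sp1 was searched as GGGCGG, and the site shared by many nuclear receptors as AGGTCA. The E-box was searched as CACGTG, and the core of the cAMP response element as ACGTCA. Adjoining or overlapping matches run together. Sequences read from 5′ to 3′ on the strand of the gene.
Pck1, GRCm38 chr2:173152823-173153072, plus strand: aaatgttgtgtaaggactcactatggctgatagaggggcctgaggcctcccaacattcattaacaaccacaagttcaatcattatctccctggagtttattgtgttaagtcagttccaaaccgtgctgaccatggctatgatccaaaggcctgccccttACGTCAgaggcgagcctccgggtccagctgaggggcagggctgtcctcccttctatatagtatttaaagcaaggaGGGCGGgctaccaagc
Agpat2, GRCm38 chr2:26604418-26604667, minus strand: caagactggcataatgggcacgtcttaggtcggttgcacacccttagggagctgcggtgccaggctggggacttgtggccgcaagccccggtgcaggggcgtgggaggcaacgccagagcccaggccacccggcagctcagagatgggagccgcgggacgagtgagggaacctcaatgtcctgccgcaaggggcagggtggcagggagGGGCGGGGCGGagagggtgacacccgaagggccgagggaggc
Lpin1, GRCm38 chr12:16610967-16611216, minus strand: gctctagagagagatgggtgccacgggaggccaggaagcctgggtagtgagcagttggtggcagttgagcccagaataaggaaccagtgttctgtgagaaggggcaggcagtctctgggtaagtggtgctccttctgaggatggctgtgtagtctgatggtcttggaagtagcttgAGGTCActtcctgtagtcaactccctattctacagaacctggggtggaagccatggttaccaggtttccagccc

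The Agpat2 window held 16 CpG, a number reached by 25.4% of the 32851 RefSeq windows, the Pck1 window 5 (55.6%) and the Lpin1 window 1 (92.1%). The median of all windows was 6. The other windows held 21 and 7 CpG for the starts of Gpam and 2 and 0 for those of Aqp7. The CpG content before the start thus ranged from rich to none among these 5 genes, and no methylation value of these starts was analysed here. In Pck1, known for its induction by cAMP, ACGTCA stood at positions -91 to -86 from the start. It was in 2 of the 7 windows of these genes, the other at a start of Gpam, and in 6.5% of all windows. Pck1 also held GGGCGG at -16 to -11. GGGCGG was in 3 of 7 windows of these genes and in 32.7% of all windows. AGGTCA was in 4 of 7 windows and in 14% of all windows. The 4 were those of Lpin1, of 1 start of Gpam and of both starts of Aqp7, whose windows overlap. The match at -223 to -218 of 1 Aqp7 window is the same site as that at -49 to -44 of the other. CCAAT was in 1 of the 7 and in 33.8% of all windows, while TATAAA and CACGTG (12.4% and 6.0% of all windows) were in 0 of the 7. A match is a run of letters and not a measured binding site.

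Gpam encodes the mitochondrial glycerol-3-phosphate acyltransferase GPAT1, which starts the route. It was the least abundant of the 8, at 15.2 FPKM (1568 estimated reads) in fl/fl against 20.8 FPKM (2120 reads) in AD1KO. Its log2 ratio of 0.45 (interval 0.36 to 0.55) was the smallest of the 8. The gene lies on chromosome 19 of mm9, 55142142 to 55201824, minus strand. Gpat3, which encodes a GPAT of the endoplasmic reticulum, was more abundant than Gpam, at 25.3 and 41.6 FPKM, and was higher in AD1KO with a log2 ratio of 0.72 (interval 0.62 to 0.82). The intervals of Gpat3 and Gpam do not overlap. Gpat4, the other microsomal GPAT, was at 14.1 and 14.8 FPKM (0.07, interval -0.06 to 0.20). Gpat2 had about 1 and 4 reads and was not tested. Gpam thus held 27.8% of the summed FPKM of the 4 GPAT genes in fl/fl and 26.9% in AD1KO, the only one of the 7 steps in which none of the 8 genes held most of the summed FPKM.

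Agpat2 encodes the lysophosphatidate acyltransferase whose loss causes congenital generalized lipodystrophy in humans. It was at 340 FPKM in fl/fl against 523 in AD1KO, from about 8732 and 13244 reads. Agpat2 was higher in AD1KO by a log2 ratio of 0.62 (interval 0.58 to 0.66). It lies on chromosome 2 of mm9, 26448577 to 26459937, minus strand, where exons share up to 64 bases with Egfl7 on the opposite strand. The other 4 AGPAT genes summed to 112 FPKM in fl/fl against 110 in AD1KO, a log2 ratio of -0.03. Agpat1 was at 51.8 and 51.2 FPKM and Agpat3 at 43.0 and 45.9. Agpat4 was lower, at 8.47 and 4.93 FPKM (-0.78, interval -1.07 to -0.48), and Agpat5 was at 8.90 and 7.68 (-0.21). Agpat2 accordingly took 75.2% of the summed FPKM of this step in fl/fl and 82.7% in AD1KO.

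Lpin1 encodes lipin 1, the phosphatidate phosphatase that is deficient in the fatty liver dystrophy mouse. It was at 28.5 FPKM in fl/fl against 45.4 in AD1KO, from about 2737 and 4299 reads. Its log2 ratio was 0.67 (interval 0.60 to 0.74), so Lpin1 was higher in AD1KO. It lies on chromosome 12 of mm9, 16542475 to 16596576, minus strand. The other lipins were much lower in level and Lpin2 went the opposite way. Lpin2 was lower in AD1KO, at 4.90 and 2.95 FPKM (-0.73, interval -0.96 to -0.50), and Lpin3 was at 2.18 and 2.16 (-0.01). The share of Lpin1 in the summed FPKM of the lipins was 80.1% in fl/fl and 89.9% in AD1KO, the largest shift among the steps. Ctdnep1, whose product is a phosphatase that acts on lipins, was at 84.6 and 64.4 FPKM (-0.39, interval -0.49 to -0.30), and its partner Cnep1r1 at 21.2 and 19.7 (-0.11).

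Dgat1 and Dgat2 encode unrelated enzymes that both make triglyceride from diacylglycerol. Dgat2 was the most abundant of the 8, at 696 FPKM in fl/fl against 1195 in AD1KO, from about 26138 and 44271 reads. Its rank by FPKM was 143 in fl/fl and 48 in AD1KO. The log2 ratio of Dgat2 was 0.78 (interval 0.76 to 0.80). Dgat1 was at 75.6 FPKM in fl/fl against 104 in AD1KO, a log2 ratio of 0.46 (interval 0.39 to 0.54). The intervals of the pair do not overlap, so Dgat2 stood further apart between the libraries than counting error gives. The level of Dgat2 was 9.21 times that of Dgat1 in fl/fl and 11.5 times in AD1KO. Dgat2 lies on chromosome 7 of mm9, 106302173 to 106331223, minus strand, and Dgat1 on chromosome 15, 76332445 to 76342381, minus strand. Triglyceride can also be reached through monoacylglycerol acyltransferases, and of these Mogat2 was higher in AD1KO, at 7.54 and 13.2 FPKM (0.80, interval 0.56 to 1.05). Mogat1 was at 2.26 and 2.80 FPKM, with an interval from -0.29 to 0.92 that includes 0.

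**Figure D2:**
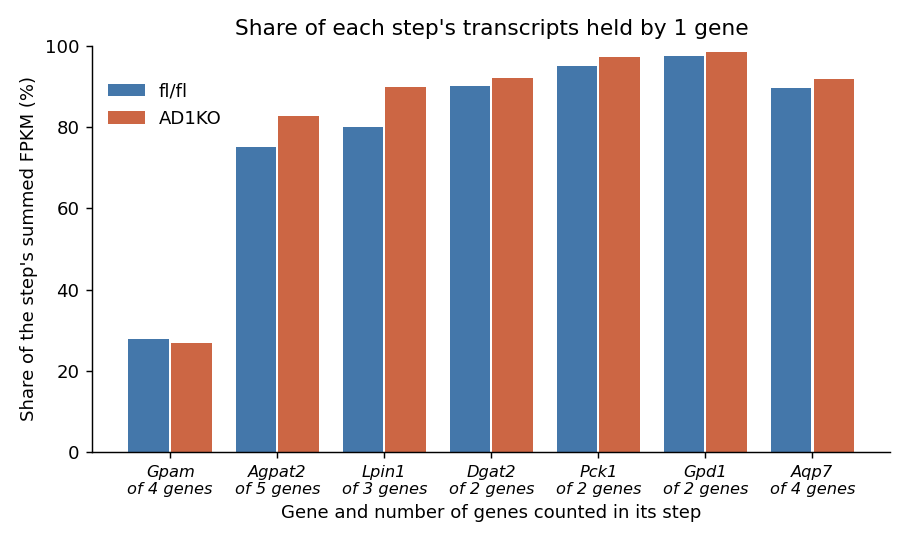
Share, in percent of summed FPKM, that the named gene held among the genes counted for its step, in the fl/fl library (blue) and the AD1KO library (orange). Lpin1 went from 80.1% to 89.9% and Agpat2 from 75.2% to 82.7%, while Gpam held 27.8% and 26.9%.

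Among the glycerol supply genes, Pck1 encodes the cytosolic phosphoenolpyruvate carboxykinase of glyceroneogenesis and had the largest log2 ratio of the 8. It was at 152 FPKM in fl/fl against 276 in AD1KO, from about 6667 and 11986 reads. The log2 ratio was 0.87 (interval 0.82 to 0.91), larger than that of all but 7.05% of tested genes. It lies on chromosome 2 of mm9, 172978549 to 172984774, plus strand. Pck2, the mitochondrial enzyme, was at 7.95 and 7.80 FPKM (-0.03, interval -0.22 to 0.16), and Pck1 held 95% and 97.3% of the FPKM of both. Pcx, for the pyruvate carboxylase that feeds the same route, was higher in AD1KO, at 128 and 206 FPKM (0.69, interval 0.65 to 0.73).

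Gpd1 encodes the cytosolic NAD-linked glycerol-3-phosphate dehydrogenase. It was at 417 FPKM in fl/fl against 696 in AD1KO, from about 19756 and 32533 reads. Gpd1 was higher in AD1KO by a log2 ratio of 0.74 (interval 0.71 to 0.76). It lies on chromosome 15 of mm9, 99547946 to 99555436, plus strand, where an exon shares up to 226 bases with Gm16537 on the opposite strand. Gpd1l, its close relative, was at 10.3 and 10.2 FPKM (-0.01, interval -0.16 to 0.14), and the mitochondrial enzyme Gpd2 at 3.89 and 3.68 (-0.08, interval -0.29 to 0.13). Glycolysis is 1 source of the triose phosphate that Gpd1 uses, beside glyceroneogenesis. Of the genes of glycolysis, Aldoa was at 1532 and 2003 FPKM (0.39) and Tpi1 at 400.3 and 561 FPKM (0.49). Both were short of the threshold on the deposited scale, and Tpi1 was past it, at 0.53 to 0.58, under the 3 other scalings of the libraries.

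Aqp7 encodes aquaporin 7, the main glycerol channel of adipocytes. The fl/fl library had 32.7 FPKM (1384 estimated reads) and the AD1KO library 45.2 FPKM (1888 reads). Its log2 ratio was 0.47 (interval 0.37 to 0.57). It lies on chromosome 4 of mm9, 40980107 to 40995172, minus strand. Aqp7 held 89.7% and 91.8% of the summed FPKM of the 4 aquaporin genes counted for this step (Aqp7, Aqp3, Aqp9 and Aqp11). Aqp9 was at 1.67 and 1.55 FPKM, Aqp11 at 1.59 and 2.37, and Aqp3 at 0.48 and 0.10 FPKM from about 14 and 3 reads (-2.16, interval -4.64 to -0.36). Glycerol kinase, which would return glycerol to the route, was low: Gk was at 4.97 and 5.35 FPKM (0.11, interval -0.10 to 0.31).

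Ordered by the log2 ratio, the 8 genes fell into a run of neighbours with 2 gaps. Pck1 lay 0.09 above Dgat2, and their intervals did not overlap. Dgat2, Gpd1, Lpin1 and Agpat2 followed, each with an interval that overlapped that of the next. Agpat2 lay 0.15 above Aqp7, again without overlap. Aqp7, Dgat1 and Gpam differed by less than their counting intervals.

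Adipocyte markers moved with these genes. Of 12 adipocyte markers, 11 were higher in AD1KO and 0 lower, with a median log2 ratio of 0.81 and a range from 0.37 for Pparg to 1.5 for Cfd. Adipoq, the gene whose promoter drives Cre, was at 1911 FPKM in fl/fl against 3318 in AD1KO (0.80, interval 0.78 to 0.81). Fabp4, a fatty acid binding protein, was at 11151 and 15920 FPKM (0.51), and Car3, a carbonic anhydrase of adipocytes, at 3238 and 7533 (1.22). The log2 ratio of Pck1 exceeded those of 8 of the 12 markers, those of Dgat2, Gpd1, Lpin1 and Agpat2 exceeded 5 of 12, and those of Aqp7, Dgat1 and Gpam exceeded 1 of 12. The ratios of all 8 genes thus lay within the range of the markers. Relative to the median of the markers, 7 of the 8 log2 ratios were below 0, from -0.36 for Gpam to -0.03 for Dgat2, and Pck1 was at 0.06. Most tested genes also lay below 0 on this scale. Of all tested genes, 8.11% had a log2 ratio above that of Dgat2 and 7.05% above that of Pck1. On that scale 575 of all tested genes (3.63%) were higher and 12247 (77.3%) lower, against 2265 and 3029 on the deposited scale. In bulk tissue, fewer cells of a type and less RNA per cell cannot be told apart. As a percentage of Adipoq, Dgat2 was at 36.4% in fl/fl and 36.0% in AD1KO, and Pck1 at 7.93% and 8.32%. Aqp7, by contrast, was at 1.71% and 1.36% of Adipoq.

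Markers of immune cells moved the other way. All 10 macrophage markers were lower in AD1KO, with a median log2 ratio of -1.18 and a summed level of 4489 FPKM in fl/fl against 2099 in AD1KO. Among them Cd68 went from 702 to 326 FPKM (-1.11) and Adgre1, which encodes F4/80, from 130 to 54.3 (-1.26). Of 8 lymphocyte markers 6 were lower (median -1.54, summed level 135 and 61.4 FPKM). The 6 endothelial markers were all within the threshold, with a median of 0.28 and summed levels of 125 and 147 FPKM, although Kdr, at 0.49, was past it under the 3 other scalings. Of 6 stromal progenitor markers Dpp4 (0.50) was higher and Pi16 (-0.70) lower, and Col1a1, at 0.49, was past the threshold under the 3 other scalings, with a list median of 0.15 and summed levels of 1098 and 1255 FPKM. The part of these cell types in the differences of the 8 genes was not tested.

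**Figure D3:**
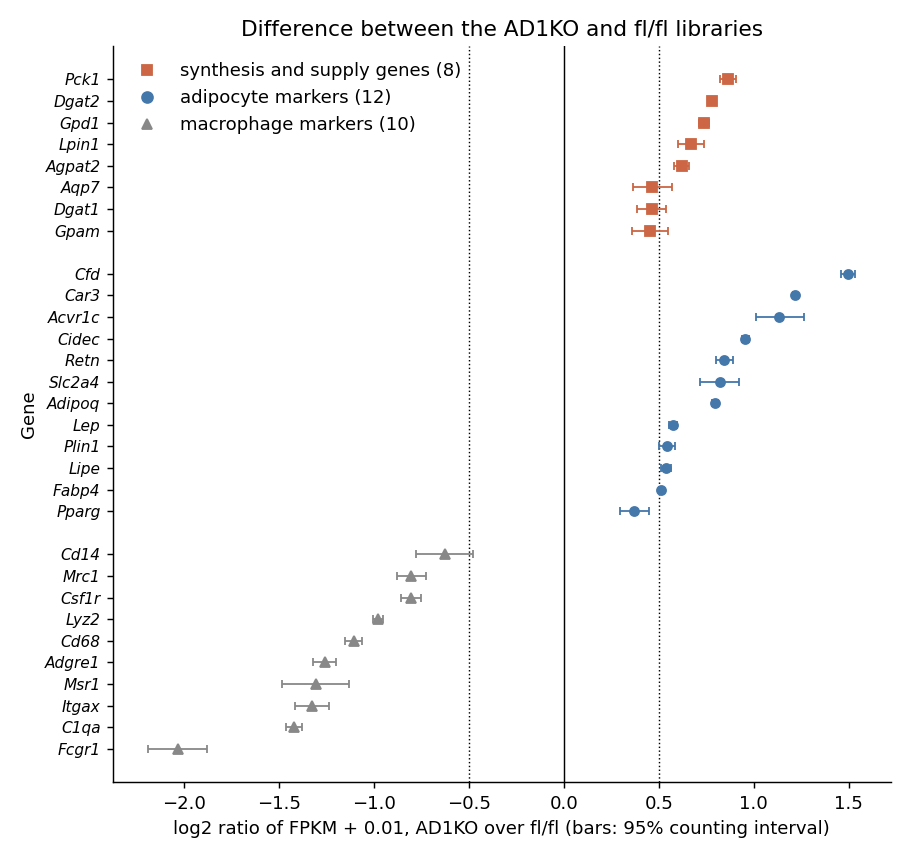
log2 ratio of AD1KO to fl/fl, with 0.01 added to each FPKM, for the 8 genes (squares), 12 adipocyte markers (circles) and 10 macrophage markers (triangles), with 95% counting intervals as bars and dotted lines at 0.5 in either direction. The 8 genes lie between 0.45 and 0.87, within the range of the adipocyte markers from 0.37 to 1.5, and the macrophage markers lie between -2.03 and -0.63.

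Pck1 is also a gene of liver and kidney, and liver markers were present at low level. All 6 liver markers were higher in AD1KO, with a median log2 ratio of 0.90 and summed levels of 68.3 and 142 FPKM. Alb, the most abundant, was at 40.0 and 89.6 FPKM (1.16, interval 1.07 to 1.26), below Pck1 in both libraries, and G6pc, another enzyme of gluconeogenesis, had about 4 and 7 reads. Of the 4 kidney markers 1, Slc34a1, is in the table, at 0.02 and 0.04 FPKM. Skeletal muscle markers, relevant to Gpd1, had 1 of 4 tested genes higher and 2 lower. Acta1, the skeletal muscle actin and the most abundant of them, was at 41.9 and 39.7 FPKM (-0.08, interval -0.21 to 0.05). The other 3, Ckm, Tnnt3 and Mylpf, had 3 to 12 reads per library. Of 8 brown or beige fat markers 2 were higher and 2 lower (median 0.10). Ucp1, the uncoupling protein of brown fat, went from 8.39 to 1.38 FPKM (-2.60), and Cidea was the other lower one. Elovl3 was higher, at 0.45 and 1.23 FPKM (1.43, interval 0.54 to 2.46), as was Dio2, at 0.23 and 0.42 FPKM (0.84, interval 0.12 to 1.60). Cox8b, the most abundant of this list, was at 79.5 and 107 FPKM (0.43, and 0.52 with the upper quartile). Of 4 tested ovary and oviduct markers 1 was higher and 2 lower, with summed levels of 6.17 and 3.62 FPKM. The lower ones were Ovgp1, with about 149 and 7 reads (-4.29, interval -5.73 to -3.31), and Pax8, with about 11 and 0 reads. Star was the higher one, at 1.42 and 2.41 FPKM (0.76). What these tissues added to the levels of the 8 genes was not tested.

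The other genes of the route are set beside all tested genes, of which 14.3% were higher and 19.1% lower. Of 12 tested paralogs and partners of the acylation and dephosphorylation steps 2 (Gpat3 and Mogat2) were higher and 2 (Agpat4 and Lpin2) lower. Their median log2 ratio was -0.01. Of 11 for glycerol supply 3 were higher and 1 lower (median 0.11), and of the 3 only Pcx had its whole interval above 0.5. Gk5 and Aqp11, the other two, had about 6 and 9 and about 34 and 50 reads. None of the 5 long-chain acyl-CoA synthetase genes, which activate fatty acids for esterification, passed the threshold. The most abundant, Acsl1, was at 370 and 508 FPKM (0.46), and Acsl5 at 41.0 and 29.4 (-0.48). Acsl1 was past it with upper quartile (0.55) or median of ratios (0.50) scaling. Acsl4 was at 8.36 and 7.05 FPKM (-0.25). In the phospholipid branch, which shares phosphatidate and diacylglycerol with triglyceride synthesis, 2 of 12 genes were higher and 1 lower (median 0.14). Pcyt2, for phosphatidylethanolamine synthesis, was at 23.0 and 33.5 FPKM (0.54), Pemt, which methylates that lipid, at 9.69 and 14.7 (0.60), and Cept1, a choline and ethanolamine phosphotransferase, at 16.0 and 11.2 (-0.51), a call lost under each of the 3 other scalings of the libraries. Chpt1, the most abundant gene of the branch, was at 270.0 and 362 FPKM (0.42), and Cdipt, for phosphatidylinositol synthesis, at 34.3 and 31.9 (-0.11). Chpt1 was past the threshold with the upper quartile only (0.51).

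Of 14 genes of triglyceride storage and breakdown 10 were higher and 1 lower, against 14.3% and 19.1% of all tested genes. The median log2 ratio of the 14 was 0.56. Cidec, a lipid droplet fusion protein, was at 1487 FPKM in fl/fl against 2885 in AD1KO (0.96). Bscl2, which encodes seipin, was at 242 and 380 FPKM (0.65, interval 0.60 to 0.70). The lipases of the opposite route stood higher as well, with Lipe at 344 and 500.1 FPKM (0.54) and Mgll at 476 and 707 (0.57), while Pnpla2 at 621 and 856 FPKM had 0.46, and 0.50 to 0.55 under the 3 other scalings. Among other genes of the list, Plin1 was at 245 and 357 FPKM (0.54), Plin4 at 244 and 365 (0.58) and Pnpla3 at 46.3 and 71.6 (0.63). Fitm1, which encodes a fat storage-inducing protein, had the largest ratio, 2.39 (interval 1.16 to 3.98), from about 6 and 32 reads. Plin2, a droplet coat protein that macrophages also express, was at 839 and 619 FPKM (-0.44, interval -0.47 to -0.41), and Cidea was lower, at 5.88 and 3.38 FPKM. Of the genes of this list, 4 (Plin1, Cidec, Lipe and Cidea) are also counted among adipocyte or brown fat markers. Of 11 regulators 2 were higher and 0 lower (median 0.30). These were Mlxipl, for the carbohydrate response factor ChREBP, at 8.92 and 13.3 FPKM (0.58), and Foxo1, an insulin-restrained activator of Pck1 in liver, at 11.6 and 17.4 FPKM (0.58). Pparg, the main activator of adipocyte lipid genes, was at 84.9 and 110 FPKM (0.37), and Srebf1 at 41.1 and 52.4 (0.35). Cebpa was at 205 and 260.3 FPKM (0.35) and Nr1h3, for the oxysterol receptor LXR alpha, at 67.3 and 76.0 (0.17).

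**Figure D4:**
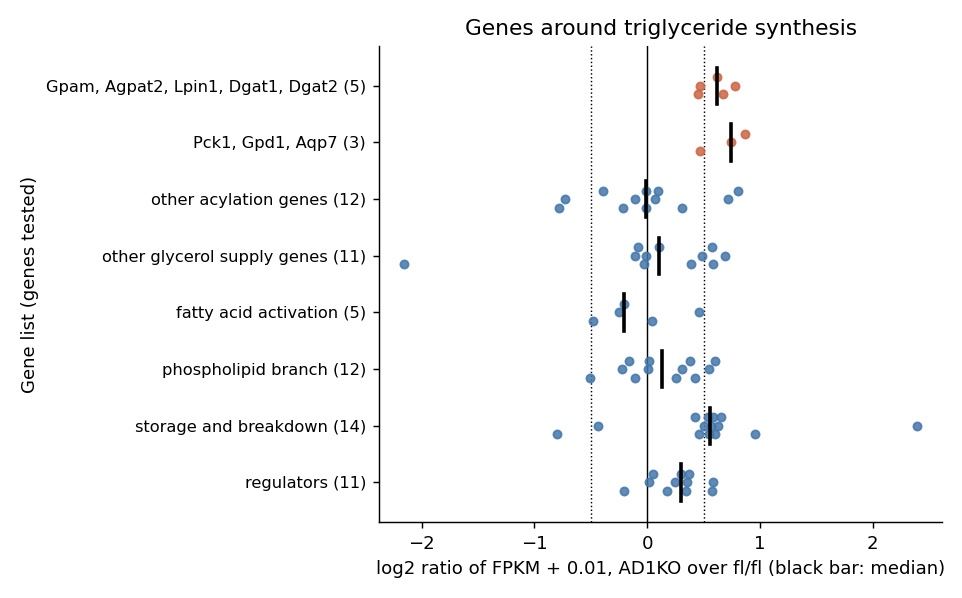
log2 ratio of AD1KO to fl/fl, with 0.01 added to each FPKM, for each tested gene, by list, with the number of genes tested in parentheses, the median as a black bar and dotted lines at 0.5 in either direction. The medians are 0.62 for the 5 acylation and dephosphorylation genes and 0.74 for Pck1, Gpd1 and Aqp7. They are -0.01 for the paralogs and partners labelled other acylation genes and 0.56 for storage and breakdown.

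For each of the 8, the named gene nearest to it over both libraries, by distance on the log2 scale, was Ubqln2 for Gpam, Slc1a5 for Agpat2, Arsb for Lpin1, Aifm2 for Dgat1, Retn for Dgat2, Lbp for Pck1, Nnat for Gpd1 and Pcyox1 for Aqp7. The distances ran from 0.0006 for Arsb, at 28.5 and 45.4 FPKM, to 0.13 for Lbp, at 166 and 280.3 FPKM. Retn is also among the adipocyte markers. With 2 libraries this is likeness of 2 levels only.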

How the data were processed

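RNA was sequenced by the authors' service provider from 1 pool of 4 mice per genotype, and samples were grouped by their genotype labels. The methods of the study give mm9 for the alignment of clean reads, while the labels of the series list both mm9 and mm10. The aligner and quantifier are not given in the sources used here. The authors deposited expression per gene as FPKM, in which 0 appears as 0.01 and was set back to 0. Fold changes and p-values in the same table are the authors' own and were not used. RRBS data were not analysed here.

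A gene was kept if it reached 0.1 FPKM in either library, and 0.01 FPKM was added before the log2 ratio, which understates the change of low genes. Reads were estimated from the steps that 1 read makes in the FPKM of genes with few reads. A length correction of 114 bases and a depth per library put 81.8% of 429 such genes in fl/fl, and 79.6% of 416 in AD1KO, within 0.15 of a whole read. Intervals at 95% are exact, Clopper-Pearson for ratios and Poisson for levels. With 1 library per group, no test between groups was made. Alternatives were other pseudocounts, filters, scalings and thresholds, and reads without the length correction.

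The 8 genes and all lists were chosen with earlier results of these data known. The naming rule took the 8, Dnmt1, the nearest gene to each of the 8 and, from each list, the 3 most abundant genes and those with the whole interval past 0.5. From the marker lists the text names only some of these, and the rest enter by their list's counts, median and summed level. Other genes given with values, such as the remaining genes of a step, were added after their values were seen. Positions are from GENCODE on mm9, and windows before gene starts from RefSeq on GRCm38.p6. Use of strand in counting is not stated, so Agpat2 and Gpd1 may share reads with the genes that overlap them. The length correction, the depths, the ratio intervals and the calls past 0.5 were tested on simulated data. The other steps were not. Tables were computed with pandas 2.3.3 and NumPy 2.4.6 under Python 3.11.15, intervals with SciPy 1.17.1 and plots with Matplotlib 3.10.9.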

Additional observations from a re-analysis of the deposited data

How the results depend on the processing

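No paired analysis was possible because each group is 1 pooled library, and no library could be left out. Pseudocounts of 0.1 and 1 FPKM, no filter and a minimum of 1 FPKM left 5 of the 8 genes past 0.5 and 0 lower. Over the 15839 tested genes, a pseudocount of 0.1 FPKM gave 2052 higher and 2824 lower, and 1 FPKM gave 965 and 1661. Without a filter 2802 of 17335 genes were higher and 3551 lower, and a minimum of 1 FPKM gave 1281 and 2068. A minimum of 10 FPKM, added after seeing the data, kept 6161 genes and gave 526 and 890. Over the 15839 tested genes, a log2 threshold of 1 gave 910 and 1417, with 0 of the 8 past it. Asking there for the whole counting interval past 0.5 gave 658 and 1312. Scaling by the trimmed mean of M-values put Dgat2 at 0.82 and Gpd1 at 0.78. The median of ratios put Agpat2 at 0.66, Dgat2 at 0.82 and Gpd1 at 0.78. The upper quartile put Agpat2 at 0.71, Lpin1 at 0.76, Dgat1 at 0.55, Dgat2 at 0.87, Pck1 at 0.95 and Gpd1 at 0.83, with 8 of 8 past 0.5 and a median of 0.73. Relative to the adipocyte marker median, Gpam was at -0.36, Agpat2 at -0.19, Lpin1 at -0.14, Dgat1 at -0.34, Dgat2 at -0.029, Pck1 at 0.057, Gpd1 at -0.07 and Aqp7 at -0.34, with 0 of 8 past 0.5, a median of -0.16, and 575 higher and 12247 lower genes in all. Relative to Adipoq alone, added after seeing the data, Gpam was at -0.34, Agpat2 at -0.18, Lpin1 at -0.12, Dgat1 at -0.33, Dgat2 at -0.017, Pck1 at 0.069, Gpd1 at -0.057 and Aqp7 at -0.33. These 2 scalings subtract a constant from each log2 ratio by construction. The other scalings likewise add a constant to each log2 ratio, so all 8 genes moved equally under each. The constant was 0.039 for the trimmed mean of M-values, 0.043 for the median of ratios and 0.089 for the upper quartile. Without the length correction Gpam had 1372 and 1865 estimated reads. Without the genes that another list holds, 8 of 8 adipocyte markers were higher, a check added after seeing the data. The depth of these libraries leaves wide intervals for genes with few reads, such as Aqp3 and Gk5, and says nothing about the spread between mice.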
